A study of Rattus norvegicus with 16 samples.

Results

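Entry into the cell cycle is controlled by a small set of genes, and 10 of them are described here: the D cyclin genes Ccnd1, Ccnd2 and Ccnd3, the kinase genes Cdk4 and Cdk6, the CDK inhibitor genes Cdkn1a, Cdkn1b and Cdkn2c, and the pocket protein genes Rb1 and Rbl1. They were chosen by symbol from a count table of 23285 genes, and all 10 were among the 16948 genes left by a filter on low counts. Their RNA was measured by sequencing of total RNA in 4 tendons of the Sprague Dawley rat, with 4 libraries per tendon: the forepaw flexor tendons, the supraspinatus tendon of the shoulder, the Achilles tendon and the patellar tendon. The flexor and supraspinatus are tendons of the forelimb, the Achilles and patellar tendons of the hindlimb. Apart from strain and tissue the labels name no treatment, genotype or age, and every pair of tendons was to be compared. The titles number the rats 1 to 4 within each tendon but do not say whether a number stands for an animal or whether equal numbers are 1 animal, so p-values measure the spread between these samples, which may be technical.

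Cyclin D proteins, made in response to growth signals, bind and activate Cdk4 and Cdk6. The active kinases phosphorylate Rb1 and its relative Rbl1 (p107), which otherwise hold E2F transcription factors in check, and freed E2F factors turn on genes of DNA replication. Inhibitors of the INK4 family, such as Cdkn2c (p18), block Cdk4 and Cdk6, whereas Cdkn1a (p21) and Cdkn1b (p27) bind cyclin and kinase complexes and restrain Cdk2 above all. Tendon is a tissue of fibroblasts in dense collagen, and most of its cells divide rarely in the adult.

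Levels are in CPM (counts scaled to a common library total, after TMM), with the SD over 4 libraries. Fold changes are log2 values with their SE, tested by edgeR's quasi-likelihood method with Benjamini-Hochberg adjustment over all genes tested. Library totals lay between 63397591 and 102491699 counts, and the fewest counts of any of the 10 genes in a library were 185, for Cdkn1a. Tendon genes were present in every tendon: Scx averaged 37.1, 19.4, 36.04 and 36.9 CPM in flexor, supraspinatus, Achilles and patellar libraries, and no library had fewer than 640 counts of it. Skeletal muscle markers (21 measured) took 1.57 to 6.13% of the counts in flexor, 11.3 to 17.8% in supraspinatus, 0.0638 to 1.24% in Achilles and 0.0499 to 3.79% in patellar libraries. The sequenced tissue was a mixture, in which fewer cells of a type and less RNA per cell cannot be told apart. Achilles 1 stood apart from its group: the library most like it was patellar 3, while the other 15 libraries had their nearest neighbour in their own tendon. Results that turn on Achilles 1, or on patellar 1 with its 3.79% of muscle counts, are given with and without them.

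The genes parted between the forelimb and the hindlimb tendons. In the forelimb tendons all D cyclin genes, Cdk4, Cdkn2c and Rbl1 were lower than in the hindlimb tendons. Cdkn1a, Cdkn1b and Rb1 were higher on average, Rb1 through the flexors alone. The call for Cdkn1b was lost on library totals without TMM (0.11, adjusted p = 0.248), and its direction in supraspinatus tendon depended on the scaling. Only Cdk6 did not pass the test of forelimb over hindlimb, which contrasts the mean log2 level of flexor and supraspinatus with that of Achilles and patellar tendon. The p-values of this contrast rest on the spread of libraries within these 4 tendons. Limb and tendon cannot be told apart, so the contrast describes these tendons and not limbs in general. Of the 10 genes 9 passed, 3 higher and 6 lower, beside 58.8% of all genes tested, of which 30.3% were higher and 28.5% lower. The median log2 fold change was -0.58 over the 10 genes and 0.02 over all genes, and the median size without sign was 0.73 against 0.44. All 10 genes differed among the 4 tendons, as did 75.6% of all genes, so the count itself is near the background. All of them still did in each alternative fit tried, the weakest being Cdkn1a with an adjusted p of 0.0332.

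**Figure D1:**
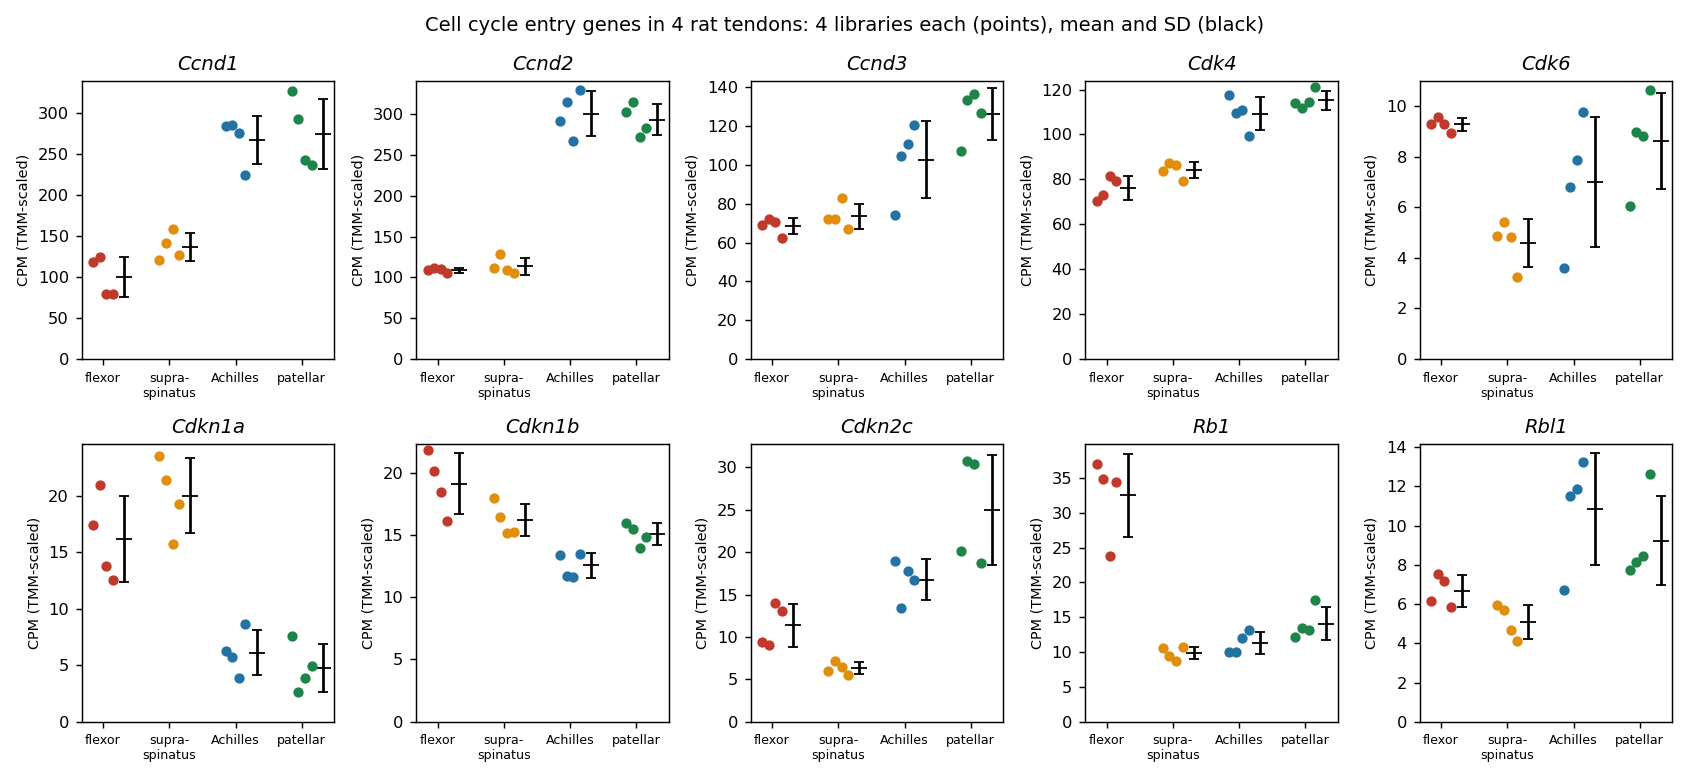
Level of each of the 10 genes in CPM (TMM-scaled, vertical axes starting at 0) in flexor, supraspinatus, Achilles and patellar tendon; each point is 1 library and the black bars are mean and SD over 4 libraries. Ccnd1, Ccnd2 and Cdk4 were lower in all 8 forelimb libraries than in any hindlimb library, Cdkn1a was higher in all of them, and Rb1 was highest in the flexor libraries.

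Ccnd2 (ENSRNOG00000057710), a D cyclin gene induced by growth factor and hormone signals, was lower in every forelimb library than in any hindlimb library. It measured 109, 112, 111 and 105 CPM in the flexor libraries, and 111, 128, 109.8 and 105 CPM in the supraspinatus libraries. In the hindlimb it measured 292, 315, 267 and 330 CPM in Achilles libraries and 302, 315, 272 and 284 CPM in patellar libraries. The limbs were far apart: the highest forelimb library, supraspinatus 2, stood at 128 CPM and the lowest hindlimb library, Achilles 3, at 267 CPM. The forelimb over hindlimb log2 fold change was -1.42 ± 0.065 (adjusted p = 4.24e-09). Within a limb the levels lay close together. Flexor and supraspinatus averaged 109 ± 3.12 and 114 ± 10.1 CPM, a log2 difference of -0.06 ± 0.09 (adjusted p = 0.619) that turned to 0.28 (adjusted p = 0.0424) on library totals and to 0.01 without supraspinatus 2. Achilles and patellar averaged 301 ± 27.5 and 293 ± 19.3 CPM, a log2 difference of 0.04 ± 0.090.

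Ccnd1 (ENSRNOG00000020918), the D cyclin gene most widely expressed in connective tissue cells, followed the same limb pattern with more spread between libraries. Flexor libraries had 118.1, 124, 78.7 and 79.8 CPM and supraspinatus libraries 120.4, 141, 159 and 127 CPM. Achilles libraries had 284, 285, 275 and 224 CPM and patellar libraries 326, 293, 243 and 236 CPM. No forelimb library reached the hindlimb range, and the log2 fold change of forelimb over hindlimb was -1.21 ± 0.12 (adjusted p = 1.07e-06). Unlike for Ccnd2, the forelimb tendons also differed from each other, with means of 100.3 ± 24.4 CPM (flexor) and 137 ± 17.0 CPM (supraspinatus) and a log2 fold change of -0.45 ± 0.17 (adjusted p = 0.0368). That call was lost on library totals (-0.11, adjusted p = 0.659), with the 2 tendons alone (adjusted p = 0.114), without the filter on low counts (adjusted p = 0.0575) and without flexor 3, flexor 4 or any one supraspinatus library (adjusted p between 0.0558 and 0.107).

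Ccnd3 (ENSRNOG00000050258), a D cyclin gene also known from muscle and lymphoid differentiation, differed less. Its levels were 62.5 to 72.0 CPM in flexor, 67.2 to 82.7 CPM in supraspinatus, 74.4 to 120.4 CPM in Achilles and 107 to 137 CPM in patellar libraries. The forelimb and hindlimb ranges touched only at Achilles 1, which at 74.4 CPM lay below supraspinatus 3 at 82.7 CPM, while every other hindlimb library had at least 105 CPM. Forelimb over hindlimb gave -0.68 ± 0.092 (adjusted p = 1.92e-05), and -0.79 (adjusted p = 4.47e-07) without Achilles 1 and patellar 1. Against patellar tendon both forelimb tendons were lower, with -0.88 ± 0.13 for flexor (adjusted p = 7.29e-05) and -0.78 ± 0.13 for supraspinatus (adjusted p = 0.000169). Against Achilles tendon the differences were -0.58 ± 0.13 (adjusted p = 0.00201) and -0.48 ± 0.13 (adjusted p = 0.00635) on the log2 scale. Flexor and supraspinatus tendon did not differ detectably in Ccnd3 (-0.10 ± 0.13, adjusted p = 0.548, and 0.24 on library totals).

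Among the kinases, Cdk4 (ENSRNOG00000025602), the main partner of D cyclins in fibroblasts, moved with the cyclins over a narrow range. It measured 70.2, 73.0, 81.6 and 79.4 CPM in flexor libraries and 83.6, 87.2, 86.6 and 79.2 CPM in supraspinatus libraries. Hindlimb levels were 117, 109, 111 and 99.4 CPM in Achilles libraries and 114, 112, 114 and 121 CPM in patellar libraries. No forelimb library overlapped a hindlimb library although the log2 fold change was only -0.49 ± 0.052 (adjusted p = 2.35e-06). Flexor tendon was lower than supraspinatus tendon by a difference that did not pass (-0.15 ± 0.074, adjusted p = 0.119). It passed with DESeq2 (adjusted p = 0.0418), with a filter of 1 CPM in 8 libraries (0.0372) and when any of 8 single libraries was left out, flexor 3, flexor 4, Achilles 2, Achilles 3 and each patellar library (adjusted p between 0.0283 and 0.0493), as well as without Achilles 1 and patellar 1 (0.038), and it turned to 0.19 on library totals.

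Cdk6 (ENSRNOG00000009258), the second D cyclin kinase, which is best known from blood cells, did not follow Cdk4. The flexor libraries were nearly equal at 9.30, 9.59, 9.28 and 8.93 CPM, whereas the supraspinatus libraries had 4.87, 5.42, 4.81 and 3.25 CPM. Achilles libraries ranged widely, with 3.60, 6.80, 7.85 and 9.76 CPM, and patellar libraries had 6.04, 8.96, 8.80 and 10.6 CPM. Supraspinatus tendon was the low tendon: each of its libraries lay below every other library except Achilles 1. Flexor over supraspinatus gave 1.01 ± 0.25 (adjusted p = 0.00412) and supraspinatus over patellar -0.91 ± 0.25 (adjusted p = 0.00698). Supraspinatus over Achilles missed the threshold at -0.61 ± 0.25 (adjusted p = 0.0566) and passed without Achilles 1 (-0.83, adjusted p = 0.00342), without Achilles 1 and patellar 1 (-0.81, adjusted p = 0.00121), with DESeq2 (adjusted p = 0.0371) and on library totals (-1.01, adjusted p = 0.00393). Forelimb over hindlimb was -0.25 ± 0.18 (adjusted p = 0.239), which passed on library totals (-0.48, adjusted p = 0.0321), without Achilles 1 (-0.36, adjusted p = 0.0334) and without Achilles 1 and patellar 1 (-0.43, adjusted p = 0.00573). Flexor over Achilles (0.41 ± 0.25, adjusted p = 0.197) and flexor over patellar (0.11 ± 0.25, adjusted p = 0.743) did not pass, and the difference from patellar tendon turned to -0.06 without patellar 1.

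Cdkn1a (ENSRNOG00000000521), which encodes the inhibitor p21, a target of p53 and of differentiation signals, ran against the D cyclins. It measured 17.4, 21.0, 13.8 and 12.6 CPM in flexor libraries and 23.6, 21.4, 15.8 and 19.3 CPM in supraspinatus libraries. In the hindlimb it measured 6.29, 5.73, 3.84 and 8.68 CPM in Achilles libraries and 7.60, 2.62, 3.87 and 4.95 CPM in patellar libraries. The lowest forelimb library exceeded the highest hindlimb library, and among the 10 genes it was the single one with all forelimb libraries on the upper side, where 6.05% of all genes had no overlap. On the lower side 3 of the 10 genes had no overlap (Ccnd1, Ccnd2 and Cdk4), as did 9.3% of all genes. The forelimb over hindlimb log2 fold change of Cdkn1a was 1.74 ± 0.21 (adjusted p = 8.43e-06), and the largest contrast of a pair was supraspinatus over patellar at 2.07 ± 0.31 (adjusted p = 6.13e-05). Flexor and supraspinatus tendon did not differ detectably (-0.30 ± 0.29, adjusted p = 0.415, and 0.05 on library totals).

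Cdkn1b (ENSRNOG00000007249), the gene of p27, which rises as cells leave the cycle, had levels within a narrow range. They were 16.1 to 21.8 CPM in flexor, 15.1 to 18.0 CPM in supraspinatus, 11.6 to 13.5 CPM in Achilles and 13.9 to 15.9 CPM in patellar libraries. Achilles tendon was the low tendon, and both forelimb tendons exceeded it, flexor by 0.61 ± 0.10 (adjusted p = 0.000255) and supraspinatus by 0.37 ± 0.10 (adjusted p = 0.00816). On library totals the difference of supraspinatus from Achilles tendon was -0.05, and forelimb over hindlimb, at 0.36 ± 0.073 (adjusted p = 0.000673), was no longer past the threshold (0.11, adjusted p = 0.248). Flexor over patellar gave 0.35 ± 0.10 (adjusted p = 0.0115), a call lost without flexor 1 (0.0664) or patellar 3 (0.0541) and on library totals (0.0644). Supraspinatus and patellar tendon did not differ detectably (0.11 ± 0.10, adjusted p = 0.402), but on library totals supraspinatus was lower (-0.31, adjusted p = 0.0291). The direction for Cdkn1b in supraspinatus tendon therefore depended on the scaling. Flexor over supraspinatus was 0.24 ± 0.10 (adjusted p = 0.0662) and passed on library totals (0.59, adjusted p = 0.000843), with DESeq2 (0.0496), with a replicate block (0.044), with the 2 tendons alone (0.0463), without flexor 4 (0.046) and without supraspinatus 1 (0.0185).

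Cdkn2c (ENSRNOG00000008956), the INK4 inhibitor gene on the list, did not move with the other inhibitors but with the cyclins. It measured 9.46, 9.001, 14.01 and 13.1 CPM in flexor libraries and 6.01, 7.22, 6.47 and 5.57 CPM in supraspinatus libraries. Achilles libraries had 19.0, 13.4, 17.8 and 16.7 CPM and patellar libraries 20.2, 30.8, 30.4 and 18.7 CPM. Every supraspinatus library was below every other library, and limb ranges overlapped only where flexor 3 at 14.01 CPM exceeded Achilles 2 at 13.4 CPM. Forelimb over hindlimb was -1.27 ± 0.14 (adjusted p = 2.51e-06), flexor over supraspinatus 0.85 ± 0.19 (adjusted p = 0.00222) and supraspinatus over patellar -1.99 ± 0.20 (adjusted p = 2.88e-06). Flexor over Achilles was smaller, -0.56 ± 0.19 (adjusted p = 0.0263), and was lost without flexor 1 (0.0682), flexor 2 (0.0705), Achilles 1 (0.0692) or Achilles 3 (0.0542).

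Rb1 (ENSRNOG00000016029), the retinoblastoma gene, was high in the flexors and not in both forelimb tendons. Flexor libraries had 37.0, 34.9, 23.8 and 34.4 CPM, and supraspinatus libraries 10.5, 9.42, 8.79 and 10.7 CPM. Achilles libraries had 9.96, 10.04, 12.03 and 13.1 CPM, and patellar libraries 12.1, 13.5, 13.2 and 17.5 CPM. All flexor libraries exceeded all others, and the log2 fold change was 1.72 ± 0.16 over supraspinatus (adjusted p = 1.79e-06), 1.53 ± 0.15 over Achilles (adjusted p = 3.79e-06) and 1.21 ± 0.15 over patellar tendon (adjusted p = 1.89e-05). The forelimb over hindlimb value of 0.51 ± 0.11 (adjusted p = 0.000915) came through the flexors, as supraspinatus tendon stood below patellar tendon (-0.51 ± 0.15, adjusted p = 0.0104). Without patellar 4 that last call was lost (-0.37, adjusted p = 0.055). Supraspinatus over Achilles was -0.19 ± 0.15 (adjusted p = 0.304), and -0.62 (adjusted p = 0.00269) on library totals.

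Rbl1 (ENSRNOG00000006921), whose product p107 is abundant in cycling cells, followed the cyclins. Its levels were 5.84 to 7.53 CPM in flexor, 4.11 to 5.93 CPM in supraspinatus, 6.71 to 13.3 CPM in Achilles and 7.72 to 12.6 CPM in patellar libraries. Achilles 1 held the low end at 6.71 CPM, and the other hindlimb libraries all exceeded the forelimb libraries. Forelimb over hindlimb was -0.78 ± 0.15 (adjusted p = 0.000412), and -0.91 (adjusted p = 2.89e-05) without Achilles 1 and patellar 1. The largest contrast of a pair was supraspinatus over Achilles (-1.09 ± 0.21, adjusted p = 0.000674). Flexor over patellar missed the threshold (-0.47 ± 0.21, adjusted p = 0.0753) but passed without Achilles 1 (-0.47, 0.0303), without patellar 1 (-0.57, 0.0467), without both (-0.57, 0.0126), with the 2 tendons alone (-0.50, 0.0406) and on library totals (-0.54, 0.0471). Flexor over supraspinatus was 0.39 ± 0.21 (adjusted p = 0.145) and passed on library totals (0.72, 0.011) and with the 2 tendons alone (0.46, 0.0367).

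Rb1 and Rbl1 are themselves known E2F targets, so the promoter windows of the 10 genes, from 250 bases before to 50 bases after the gene start in RefSeq (build GRCr8), were searched on both strands for 3 forms of the E2F site. These were TTTGGCG, held by 1.45% of all 33469 promoters, TTTCGCG, held by 0.819%, and TTTCCCG, held by 3.57%. Windows were listed for 7 of the 10 genes, all but Ccnd1, Ccnd2 and Cdk6. A match was found in 3 of them, while 5.65% of all promoters held at least 1 of the motifs. The stretches of 80 bases around the matches are shown because they hold both pocket protein genes and the inhibitor gene that moved with the cyclins; capitals mark the matched letters, read 5′ to 3′ on the strand of the gene.
Rbl1, chr3:166289351-166289430, minus strand: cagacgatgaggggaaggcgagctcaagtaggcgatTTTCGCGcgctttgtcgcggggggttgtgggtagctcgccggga
Rb1, chr15:54911812-54911891, minus strand: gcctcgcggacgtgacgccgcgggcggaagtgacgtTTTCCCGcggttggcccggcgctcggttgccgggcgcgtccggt
Cdkn2c, chr5:129644938-129645017, minus strand: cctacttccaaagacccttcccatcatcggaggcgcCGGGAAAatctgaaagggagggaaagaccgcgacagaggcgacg
The Rbl1 match begins at position -18 and the Rb1 match at position 3 relative to the gene start. In Cdkn2c the letters are those of TTTCCCG on the opposite strand and begin at position -90. These matches are descriptions of letters and say nothing of binding, and the genes that hold them did not share a pattern: Rbl1 and Cdkn2c were lower in the forelimb tendons, and Rb1 was high in the flexors.

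**Figure D2:**
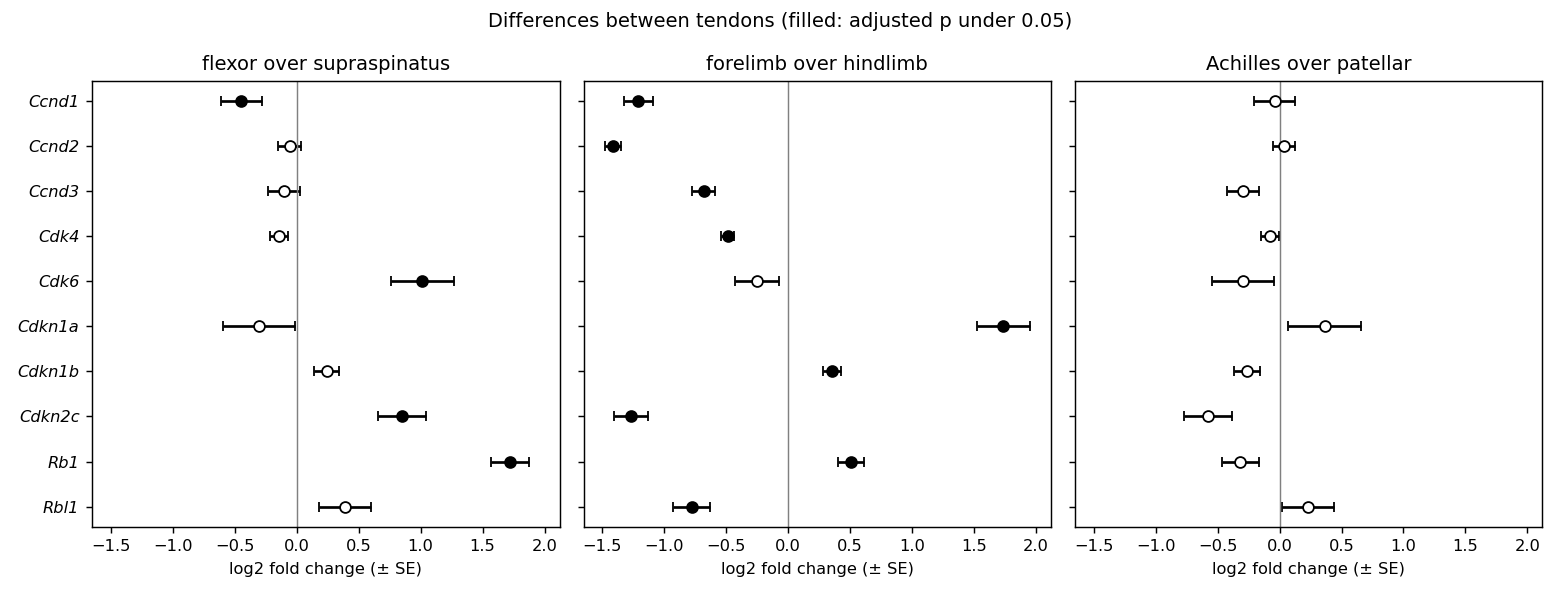
Log2 fold change ± SE of each of the 10 genes for flexor over supraspinatus, forelimb over hindlimb and Achilles over patellar tendon (horizontal axes, common scale), with filled points where the adjusted p was under 0.05. In the middle panel Ccnd2 lies farthest to the left at -1.42 and Cdkn1a farthest to the right at 1.74; in the right panel no point is filled.

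Between the forelimb tendons 4 of the 10 genes passed, beside 47.7% of all genes. Cdk6, Cdkn2c and Rb1 were higher in flexor tendon and Ccnd1 was lower, beside 23.4% of genes higher and 24.3% lower. Higher Rb1 and Cdkn2c, both brakes on the cycle, stood beside higher Cdk6, a driver. Libraries did not overlap for Cdk6, Cdkn2c and Rb1, as was the case for 23.6% of all genes on the higher side.

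Across the limbs the pairs gave similar lists. For flexor over Achilles 9 genes passed, 3 higher (Cdkn1a, Cdkn1b and Rb1) and 6 lower, beside 47.7% of all genes (24.1% higher and 23.5% lower). Flexor over patellar gave 8, the same 3 higher and 5 lower, beside 50.5% (25.8% higher and 24.7% lower). For supraspinatus over Achilles 8 passed, with Cdkn1a and Cdkn1b higher and 6 lower, beside 50.1% (24.7% higher and 25.4% lower). Supraspinatus over patellar gave 9, with Cdkn1a alone higher and 8 lower, beside 56.4% (27.5% higher and 28.8% lower). These pairs share libraries, so their lists are not independent of one another. On library totals, without TMM, the median over all genes of the log2 fold change moved from 0.02 to -0.22 in forelimb over hindlimb, from -0.03 to 0.31 in flexor over supraspinatus, and from -0.05 to -0.47 and -0.46 in supraspinatus over Achilles and over patellar, and the changes given here are relative to the TMM scale. The split of all calls moved likewise, to 3261 higher and 7221 lower genes in place of 5140 and 4831 across the limbs. It was 6591 and 1830 in place of 3964 and 4118 for flexor over supraspinatus, 2275 and 8430 in place of 4185 and 4312 for supraspinatus over Achilles, and 2523 and 8424 in place of 4668 and 4887 for supraspinatus over patellar.

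Between Achilles and patellar tendon 0 of the 10 genes passed with edgeR, beside 5.16% of all genes. At an unadjusted p under 0.05 there were 3, Ccnd3 (-0.30 ± 0.13), Cdkn1b (-0.26 ± 0.10) and Cdkn2c (-0.58 ± 0.19), all lower in Achilles tendon, with adjusted p-values of 0.193, 0.15 and 0.0925. DESeq2 called 1 of the 10, Cdkn2c (-0.58, adjusted p = 0.0398), and limma-voom 0. Cdkn1b libraries did not overlap, at 11.6 to 13.5 CPM in Achilles and 13.9 to 15.9 CPM in patellar tendon; 5.82% of all genes showed no overlap in this direction. Differences in the other genes had SEs of up to 0.30 on the log2 scale, so that moderate ones were not detectable here.

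Counts of a gene against those of a partner in the same library do not depend on the scaling. Per 100 counts of the summed D cyclin genes, flexor libraries had 5.09 to 6.81 and supraspinatus libraries 4.50 to 7.77 counts of Cdkn1a, against 0.588 to 1.29 in Achilles and 0.354 to 1.03 in patellar libraries. Means were 5.78 ± 0.767, 6.24 ± 1.35, 0.914 ± 0.294 and 0.686 ± 0.286 in flexor, supraspinatus, Achilles and patellar tendon, and the limbs did not overlap. Counts of Cdkn1a per count of Cdkn1b, the gene of its closest relative on the list, were 0.749 to 1.04 in flexor and 1.04 to 1.31 in supraspinatus, against 0.331 to 0.645 in Achilles and 0.169 to 0.477 in patellar libraries. The make-up of the D cyclin counts shifted as well. Ccnd3 made up 24.8 ± 1.801% of them in flexor and 22.7 ± 1.204% in supraspinatus, against 15.3 ± 2.86% in Achilles and 18.3 ± 2.76% in patellar tendon. Achilles 1 had the lowest share at 11.4%. Rb1 counts per Rbl1 count set the flexors apart, at 3.31 to 6.02 in flexor, 1.66 to 2.60 in supraspinatus, 0.871 to 1.48 in Achilles and 1.38 to 1.65 in patellar libraries. So did Cdk6 counts per 100 Cdk4 counts, at 11.3 to 13.3 in flexor, against 4.11 to 6.22 in supraspinatus, 3.06 to 9.82 in Achilles and 5.31 to 8.76 in patellar libraries. Summed D cyclin levels, which are in CPM and unlike the ratios depend on the scaling, were 278 ± 29.0 CPM in flexor and 324 ± 26.3 CPM in supraspinatus libraries. In the hindlimb they were 671 ± 25.2 CPM in Achilles libraries and 694 ± 51.8 CPM in patellar libraries. The ratios compare 1 gene pair across tendons and are not levels of 1 gene against another, since counts were not divided by transcript length.

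**Figure D3:**
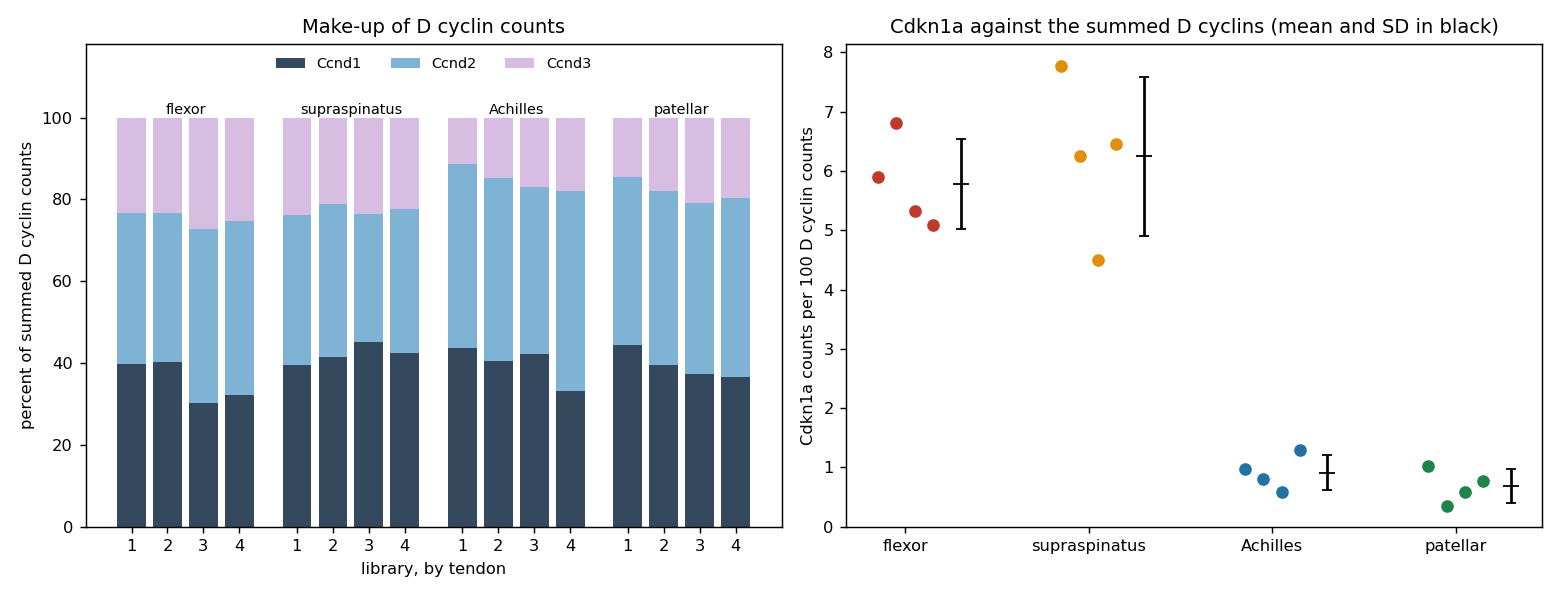
Left, share of Ccnd1, Ccnd2 and Ccnd3 in the summed D cyclin counts of each of the 16 libraries (stacked bars, percent). Right, Cdkn1a counts per 100 D cyclin counts by tendon, 1 point per library with mean and SD; the forelimb libraries lie between 4.50 and 7.77 and the hindlimb libraries between 0.354 and 1.29.

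Muscle content also parted the forelimb from the hindlimb tendons. Of the 21 skeletal muscle markers 20 were higher in the forelimb tendons, beside 30.3% of all genes. The summed level was 15567 to 58910 CPM in flexor and 131827 to 243660 CPM in supraspinatus libraries. It was 579 to 11891 CPM in Achilles and 467 to 33677 CPM in patellar libraries, and every marker exceeded 3 counts in at least 1 library of each tendon. The forelimb and hindlimb libraries nearest to each other in muscle share were flexor 2, with 3.63% of counts from muscle markers, and patellar 1, with 3.79%. By the mean log2 level of the markers they lay further apart, at 8.98 for flexor 2 and 7.53 for patellar 1. On that measure the limbs did not overlap, the nearest libraries being flexor 3 at 7.69 and Achilles 2 at 7.65. Flexor 2 had 124 CPM of Ccnd1, 112 CPM of Ccnd2 and 21.0 CPM of Cdkn1a, against 326, 302 and 7.60 CPM in patellar 1, a pair of single libraries that gives no test. When the mean log2 level of these markers entered the model as a covariate, forelimb over hindlimb was -1.33 for Ccnd1 (adjusted p = 0.00269), -1.53 for Ccnd2 (adjusted p = 1.31e-05), -0.81 for Ccnd3 (0.0131), -0.35 for Cdk4 (0.0328) and -1.15 for Rbl1 (0.0206). The other calls were lost with it: Cdkn1a (1.13, adjusted p = 0.0615), Cdkn2c (-0.67, 0.0575), Cdkn1b (0.31, 0.199) and Rb1 (0.25, 0.512). Of the calls between single tendons it ended those of Ccnd1 (-0.38, adjusted p = 0.178) and Cdkn2c (0.48, 0.0781) in flexor over supraspinatus, Cdkn2c in flexor over Achilles (-0.18, 0.506) and Cdkn1b in flexor over patellar (0.31, 0.127). It also ended 5 of 8 in supraspinatus over Achilles, namely Ccnd3 (-0.63, adjusted p = 0.119), Cdk4 (-0.20, 0.364), Cdkn1a (0.92, 0.271), Cdkn1b (0.31, 0.358) and Cdkn2c (-0.66, 0.162). In supraspinatus over patellar it ended 5 of 9, Cdk4 (-0.26, adjusted p = 0.241), Cdk6 (-1.43, 0.112), Cdkn1a (1.26, 0.127), Rb1 (-0.87, 0.0872) and Rbl1 (-1.39, 0.0564). Calls over all genes were lost too: from 9971 to 2951 in forelimb over hindlimb and from 8497 to 1702 in supraspinatus over Achilles. They fell from 9555 to 1953 in supraspinatus over patellar and from 8082 to 5959 in flexor over supraspinatus. For flexor over Achilles they fell from 8076 to 5481, and for flexor over patellar from 8560 to 5493. Beyond these comparisons the part of muscle in the levels of Cdkn1a and Cdkn2c was not tested.

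**Figure D4:**
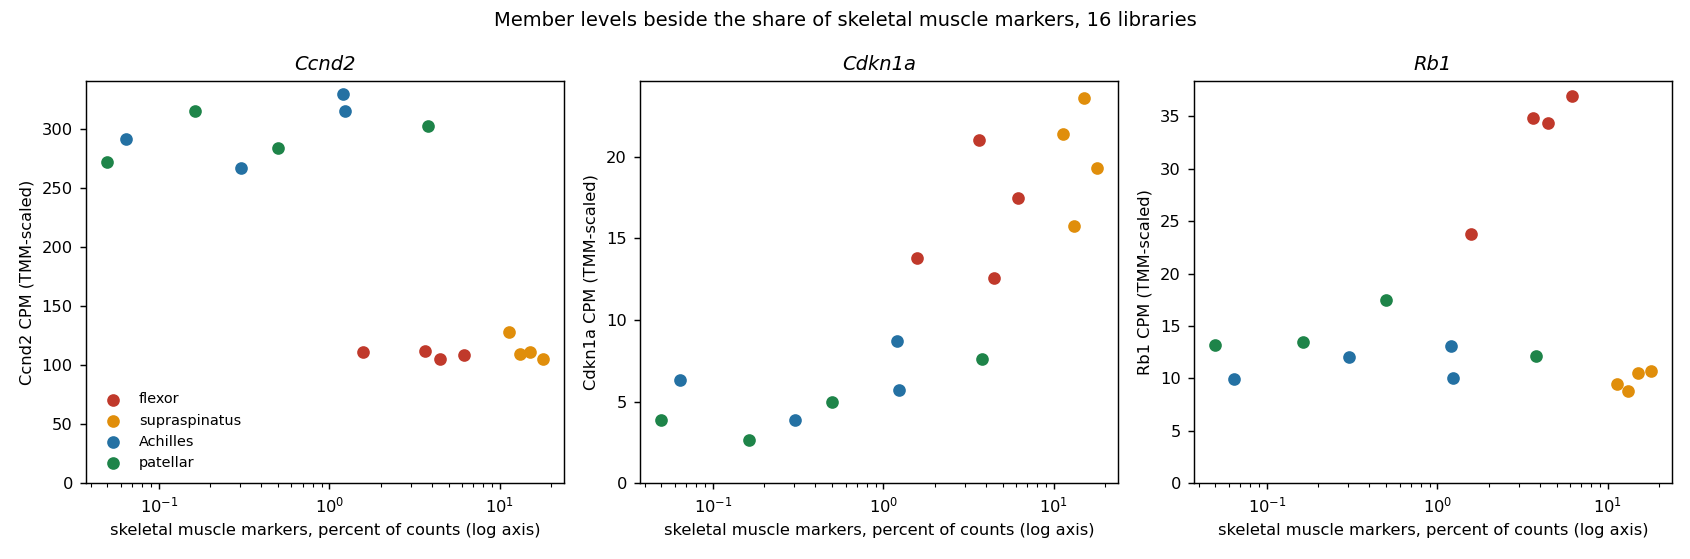
CPM of Ccnd2, Cdkn1a and Rb1 (vertical axes) against the percent of counts from 21 skeletal muscle markers (horizontal, log axis), 1 point per library, coloured by tendon. The muscle share of patellar 1 (3.79%) lies within the range of the flexor libraries (1.57 to 6.13%). By the mean log2 level of the markers, patellar 1 (7.53) lies below the lowest flexor library (flexor 3, 7.69). Ccnd2 is lower and Cdkn1a higher in every forelimb library than in any hindlimb library, and Rb1 is high in the flexor libraries alone.

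Markers of other cell types were counted against 30.3% of all genes higher and 28.5% lower in the forelimb tendons. Endothelial markers were lower in the forelimb tendons for 10 of 10 genes, with summed levels of 453 to 802 CPM in flexor and 677 to 1381 CPM in supraspinatus, against 1314 to 1893 CPM in Achilles and 1655 to 2673 CPM in patellar libraries. Adipocyte markers were lower for 8 of 9, at 439 to 859 CPM in flexor and 192 to 465 CPM in supraspinatus, against 2886 to 10577 CPM in Achilles and 4520 to 11739 CPM in patellar libraries. Neutrophil and marrow markers (6 tested, all lower) summed to 0.681 to 0.991 CPM in flexor and 0.377 to 0.968 CPM in supraspinatus, against 6.23 to 22.2 CPM in Achilles and 18.7 to 69.3 CPM in patellar libraries. Lower too were 7 of 9 lymphocyte and 4 of 5 erythroid markers, while satellite cell markers were higher for 8 of 9. Schwann cell markers were lower for 6 of 8, through supraspinatus tendon, where they summed to 761 to 945 CPM. Flexor libraries had 2424 to 3821 CPM of them, above the 848 to 1463 CPM of patellar libraries. In flexor over patellar tendon 4 of the 8 were higher and 1 lower, beside 25.8% and 24.7% of all genes. Achilles 1 held 7871 CPM of Schwann cell markers, against at most 1406 CPM in the other Achilles libraries. Tendon fibroblast markers gave 6 higher and 3 lower of 12. The higher ones include Egr1, also an immediate early gene (1.18, adjusted p = 0.00093). Summed over the list, these markers were lower in the forelimb tendons on average, with means of 65460 CPM (flexor) and 81965 CPM (supraspinatus). Hindlimb means were 129797 CPM (Achilles) and 114848 CPM (patellar). The limbs overlapped, with supraspinatus 2 at 102802 CPM and patellar 1 at 75369 CPM, and the sums were not tested. Macrophage markers and pericyte and smooth muscle markers each gave 0 higher and 3 lower of 9, and chondrocyte markers gave 2 higher of 7. The 3 lower of 9 and the 2 of 7 are near the shares over all genes. The part of these cell types in the levels of the cell cycle genes was not tested.

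Within tendons, libraries that were low in Cdk6 were also low in Ccnd3 and Rbl1. After each library's level was taken relative to the mean of its tendon, Pearson's r over the 16 libraries was 0.875 for Ccnd3 with Cdk6 and 0.873 for Cdk6 with Rbl1. Achilles 1 lay at -0.87, -0.44 and -0.65 (log2) for Cdk6, Ccnd3 and Rbl1, and patellar 1 at -0.48, -0.23 and -0.23. Without these libraries r was 0.509 for Ccnd3 with Cdk6, 0.721 for Cdk6 with Rbl1 and 0.137 in place of 0.682 for Ccnd3 with Rbl1, so these relations rest in large part on them. Cdkn1a and Cdkn2c ran opposite to each other within tendons (r = -0.595, and -0.569 without the same libraries). The 3 D cyclin genes, which rose and fell together across tendons (r = 0.799 to 0.920 over the 16 libraries), had lower values within them (r = -0.104 to 0.157, and 0.134 to 0.327 without Achilles 1 and patellar 1). Points share library, depth and scaling, and the values are descriptions of 45 pairs of genes.

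**Figure D5:**
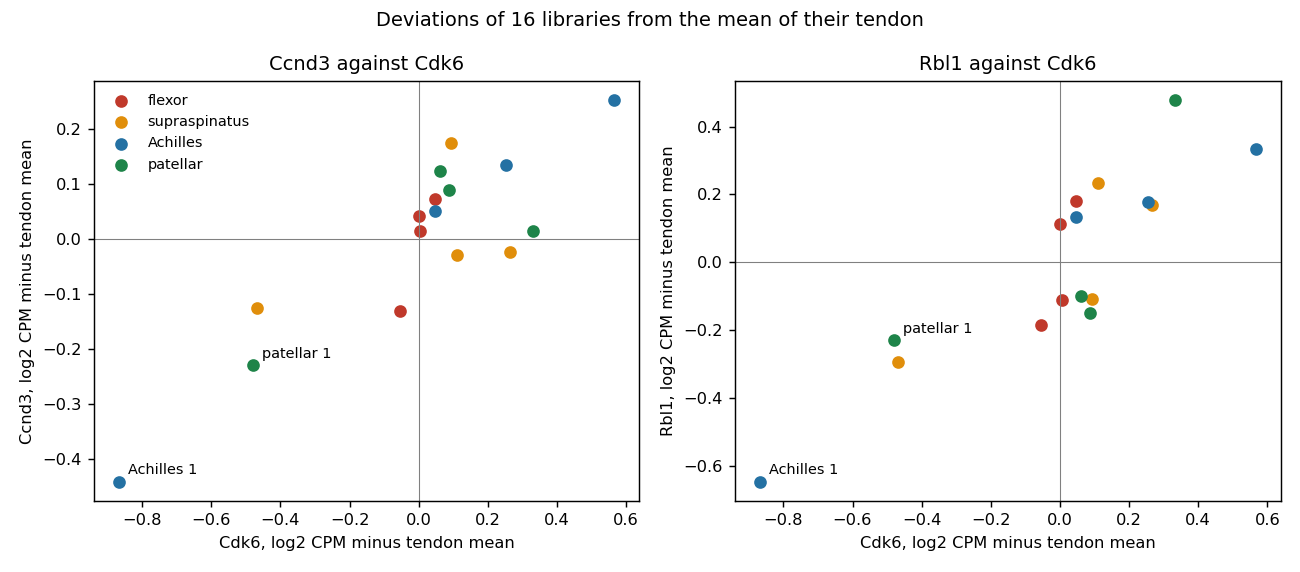
Deviation of each of the 16 libraries from the mean of its own tendon (log2 CPM) for Ccnd3 and Rbl1 (vertical axes) against Cdk6 (horizontal axis). Achilles 1 lies lowest in both panels, at -0.87 for Cdk6.

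Genes downstream of the pocket proteins moved with the D cyclins. Of 20 replication and mitosis genes all 20 were lower in the forelimb tendons, with a median log2 fold change of -1.76. So were 8 of 9 tested genes of cyclins E, A and B, their kinases and CDC25 (median -1.53, 1 higher). Over all genes 28.5% were lower and 30.3% higher. The helicase subunit gene Mcm5 averaged 3.26 CPM in flexor libraries and 4.43 CPM in supraspinatus libraries, against 33.9 CPM in Achilles libraries and 19.8 CPM in patellar libraries (-2.77 ± 0.15). Mcm3 stood at 7.35 and 7.44 CPM in flexor and supraspinatus, against 33.1 and 24.1 CPM in Achilles and patellar tendon. Tyms, which makes thymidylate for DNA, differed by -1.67 ± 0.092, and Cdc6, which loads the helicase, by -3.24 ± 0.19. Ccnb1, the mitotic cyclin gene (-2.43 ± 0.21), its kinase gene Cdk1 (-2.72 ± 0.26), Ccna2 of S phase (-3.68 ± 0.42) and Cdk2 (-0.81 ± 0.076) were all lower. Without Achilles 1 and patellar 1 the counts were likewise 20 and 8, where 4874 of 17064 genes were lower. With the muscle covariate they were 17 and 8, where 1687 of 16948 genes were lower. Between the forelimb tendons 5 of the 20 were lower in flexor and 0 higher, where 24.3% of all genes were lower, and on library totals 1 was lower and 4 were higher. In Achilles over patellar tendon 2 of the 20 were higher, where 525 of 16948 genes were. On library totals 0 of the 20 were higher, where 388 of 16948 genes were.

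The E2F and DP factors with Rbl2 gave 4 of 10 higher and 2 lower in the forelimb tendons, near the shares over all genes (30.3% higher and 28.5% lower). Those lower were the atypical repressors that peak in S phase, E2f7 (0.265 CPM in flexor libraries and 0.712 CPM in supraspinatus libraries, against 3.79 and 3.58 CPM in Achilles and patellar tendon) and E2f8 (0.319 and 0.380 CPM, against 2.60 and 3.07 CPM). E2f6, a repressor that does not bind pocket proteins, was higher by 1.47 ± 0.18, at 85.3 CPM in flexor libraries and 76.8 CPM in supraspinatus libraries, against 29.2 CPM in each hindlimb tendon. E2f5, which pairs with the pocket proteins of resting cells, resembled Rb1, at 3.96 CPM in flexor tendon and 0.955, 1.24 and 1.76 CPM in supraspinatus, Achilles and patellar tendon (flexor over supraspinatus 2.05, adjusted p = 3.22e-05). With the muscle covariate the counts were 1 higher and 2 lower, beside 1264 higher and 1687 lower of 16948 genes.

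Of the other CDK inhibitors, Cdkn2b (p15), an INK4 gene induced by TGF-beta, was higher in the forelimb (1.26 ± 0.27, adjusted p = 0.000964), opposite to Cdkn2c, at 4.80 CPM in flexor libraries and 2.47 CPM in supraspinatus libraries, against 1.51 and 1.36 CPM in Achilles and patellar tendon. By itself supraspinatus tendon did not pass for Cdkn2b over Achilles (0.70, adjusted p = 0.134) or patellar tendon (0.86, 0.0663). Cdkn1c (p57) did not pass across the limbs (-0.61 ± 0.30, adjusted p = 0.0917), at 16.5 and 8.51 CPM in flexor and supraspinatus, against 14.5 ± 11.2 and 22.5 ± 10.2 CPM in Achilles and patellar tendon. Cdkn2a, the gene of p16 and ARF, was lower in the forelimb by its fitted value (-1.75 ± 0.36, adjusted p = 0.000678), at 0.0395 CPM in flexor libraries and 0.128 CPM in supraspinatus libraries, against 0.214 and 0.274 CPM in Achilles and patellar tendon. In the flexor libraries this is close to the floor of 3 counts, which came to 0.0283 to 0.0309 CPM there. Supraspinatus tendon did not pass for Cdkn2a over Achilles (-0.75, adjusted p = 0.213) or patellar tendon (-1.10, 0.0656). Among genes of cyclin D and p27 turnover and CDK activation, 4 of 11 were higher and 4 lower across the limbs (1 higher and 6 lower on library totals), also near the shares over all genes. Fbxo31, part of a ubiquitin ligase that targets cyclin D1, was higher in the forelimb by 2.05 ± 0.28, at 73.5 CPM in flexor libraries and 22.5 CPM in supraspinatus libraries, against 7.999 and 12.02 CPM in Achilles and patellar tendon. Its difference between supraspinatus and patellar tendon did not pass (0.91, adjusted p = 0.0541). Cks1b, a cofactor in p27 degradation, was lower (-1.16 ± 0.071), at 10.2 and 10.1 CPM in flexor and supraspinatus, against 22.2 and 23.1 CPM in Achilles and patellar tendon, and its relative Cks2 was lower too (-2.63 ± 0.25). Cdc37, the chaperone adaptor that loads Cdk4, was high in supraspinatus tendon alone, at 215 CPM, against 102.1, 115 and 128 CPM in flexor, Achilles and patellar tendon.

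Of 12 genes of p53 and its targets, the group to which Cdkn1a belongs, 3 were higher and 5 lower in the forelimb tendons (3 higher and 7 lower on library totals), beside 30.3% and 28.5% of all genes. Ccng1, a p53 target, averaged 1743 CPM in supraspinatus tendon, against 318, 237 and 276 CPM in flexor, Achilles and patellar tendon, and Mdm2, the p53 ligase gene, was also highest there at 139 CPM, against 86.2, 72.0 and 67.8 CPM. Sesn2 (-0.96 ± 0.095) and Plk2 (-1.40 ± 0.17) were lower in the forelimb. FoxO factors and genes of the DREAM complex gave 5 higher and 3 lower of 10 (2 and 5 on library totals), beside the same shares. Foxo1, a FoxO factor known to induce Cdkn1b, was high in the flexors like Rb1, at 52.7 CPM in flexor, 7.47 in supraspinatus, 13.3 in Achilles and 18.0 CPM in patellar tendon. Foxo4 was highest in supraspinatus tendon (3.58 CPM, against 1.32, 1.17 and 1.21 CPM in flexor, Achilles and patellar tendon). Mybl2, which replaces the pocket proteins in the complex of cycling cells, was lower in the forelimb (-2.99 ± 0.31), and Dyrk1a, the kinase that assembles DREAM, was higher by 0.95 ± 0.085. Immediate early genes, which lie upstream of Ccnd1 after growth signals, were higher for 8 of 14 and lower for 0 across the limbs. Over all genes 30.3% were higher and 28.5% lower. With the muscle covariate 2 of the 14 were higher, where 1264 of 16948 genes were. By pair, 11 were higher in flexor over Achilles and 10 in flexor over patellar, beside 24.1% and 25.8% of all genes. Supraspinatus over Achilles gave 5 higher, beside 24.7%. Supraspinatus over patellar gave 2 higher and 1 lower, beside 27.5% and 28.8%. On library totals that pair gave 0 higher and 6 lower, where 2523 and 8424 of 16948 genes were. The limb count thus came mostly through the flexors, and Jund did not pass across the limbs (adjusted p = 0.139). Dusp1, Egr1, Jun and Jund were highest in the flexor libraries, where Ccnd1 was lowest: Jun averaged 308 CPM in flexor, 119 in supraspinatus, 72.9 in Achilles libraries and 147 CPM in patellar libraries, and Jund 261, 14.6, 24.6 and 48.2 CPM.

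Over all 16 libraries, each of the 10 genes had a set of genes with a like pattern, ranked by Pearson's r of log2 CPM among 12251 genes and given with no test, since most of r comes from differences between tendons. The patterns most like Ccnd1 were those of Col18a1, a basement membrane collagen gene (r = 0.982), Pafah1b2 (0.975) and Thsd1 (0.974). For Ccnd2 they were Hoxc10, a homeobox gene of the posterior body (0.985), Lxn (0.982) and the mitotic checkpoint gene Kntc1 (0.981), but within tendons their r was -0.177, 0.061 and 0.368. Ccnd3 was most like Shox2, a limb homeobox gene (0.967), Fscn1 (0.964) and Copz2 (0.953), and Cdk4 like Cd40 (0.980), Blvra (0.973) and Jaml (0.970). For Cdk6 the nearest were Nop9 (0.972) and Rrs1 (0.971), both of ribosome production, and Cavin3 (0.970), with r of 0.947 to 0.955 also within tendons. Those values include Achilles 1 and patellar 1, both low in Cdk6 for their tendon, and were not computed without them. The flexor pattern of Rb1 was matched by Dapk3 (0.986), Zc3h12c (0.977) and Gsr (0.975); Dapk3 averaged 36.2 CPM in flexor, against 2.19, 2.59 and 4.45 CPM in supraspinatus, Achilles and patellar tendon. Cdkn1a was nearest to Sptb (0.972), a spectrin gene of red cells and muscle, Masp1 (0.957) and Arhgef17 (0.953). Sptb averaged 92.6 CPM in flexor libraries and 184.5 CPM in supraspinatus libraries, against 8.70 and 8.19 CPM in Achilles and patellar tendon. Cdkn2c was nearest to Cers6 (0.968), Sfxn1 (0.957) and Rpl3 (0.957), Cdkn1b to Cd46 (0.937), Creb3l2 (0.929) and Tdrd3 (0.915), and Rbl1 to Ptpru (0.946) and the mitosis genes Fam83d (0.936) and Ncapg2 (0.927).

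The authors' deposited table, made with edgeR and listing 12588 genes, held all 10 genes. At an FDR under 0.05 the authors' deposited table had 5 of them between flexor and supraspinatus, beside 7392 of the 12588 genes. Between Achilles and patellar tendon the authors' deposited table had 0 of them, beside 797 of the 12588 genes. For every pair of a forelimb with a hindlimb tendon the authors' deposited table had 9, beside 6382 to 8097 of the 12588 genes. Its values went beyond the calls above for Cdk4: the authors' deposited table gives -0.19 for flexors over supraspinatus, with an FDR of 0.0272. For Cdk6, the authors' deposited table gives 0.83 for Achilles over supraspinatus, with an FDR of 0.00327. The fits made here gave -0.61 for supraspinatus over Achilles with all libraries and -0.83 without Achilles 1. For Rbl1, the authors' deposited table gives -0.51 for flexors over patellar tendon, with an FDR of 0.0178. Which libraries and filter lay behind these deposited values is not known here, so they are not an independent check.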

How the data were processed

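RNA from 16 libraries, 4 for each tendon, was purified with a miRNeasy kit and DNase I and turned into Illumina libraries, per the labels' protocols. The authors deposited a table of raw counts, whole numbers by Ensembl ID. The submitters' processing notes name HISAT2, FastQC, edgeR and rn6 without saying what each did. How reads were assigned to genes, and whether strand was used, is not stated, so that overlapping and antisense genes cannot be told apart. The authors also deposited log2 fold changes with p-values and FDR, per the file headers, in a table that the labels' file name ties to edgeR.

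Groups follow the tendon label. A quasi-likelihood model of 4 tendon means was fitted with edgeR 4.0.16 (R 4.3.3) after filterByExpr (count of 10, total of 15) and TMM. Adjusted p-values are Benjamini-Hochberg values per comparison with a threshold of 0.05, and each SE is the absolute log2 value divided by the root of its F statistic. Correlations used log2 CPM with a prior count of 2. A floor of 3 counts came to 0.0266 to 0.0485 CPM, which covers counting error only. The fit was tested on simulated data.

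The 10 genes, 8 pathway lists and 12 cell type lists were chosen with earlier results of these data known. Of 219 listed symbols 206 were matched, 2 through an older symbol, and 13 are not analysed here. From each pathway list up to 4 genes with the smallest adjusted p among the tendons and at least 1 CPM in the highest tendon are named, short lists are named whole, and 3 genes of like pattern are given per gene. Promoters came from RefSeq (GRCr8) by symbol. A planned comparison of D cyclin proteins was not made.

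Other settings were DESeq2 1.42.0, limma-voom (limma 3.58.1), median-of-ratios scaling, plain library totals, no filter, 1 CPM in 8 libraries, a replicate block, a muscle covariate, 2 tendons alone, and fits without single libraries or without both Achilles 1 and patellar 1. Figures were drawn with Python 3.11.15 and matplotlib 3.10.9.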

Additional observations from a re-analysis of the deposited data

Results flagged for a closer look

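Each of the 10 genes was checked in each of the 4 tendons for a highest or lowest library whose gap to its neighbour, as a part of the range of the 4 libraries, exceeded the critical value of Dixon's test, and 2 of 40 groups had one, where chance gives about 1 in 20. Ccnd1 was lowest in Achilles 4, at 224.2 CPM, against 275 to 285 CPM in the other Achilles libraries (gap over range 0.838). Rbl1 was highest in patellar 4, at 12.62 CPM, against 7.72 to 8.45 CPM in the other patellar libraries (gap over range 0.852).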

How the results depend on the processing

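Of 700 values for single genes under other settings (the 10 genes in 8 comparisons), 652 kept their direction and their side of the threshold, 15 passed in addition, 23 no longer passed and 10 turned. When libraries were left out, 1321 of 1360 did so. On library totals flexor over supraspinatus turned to 0.28 (Ccnd2), 0.24 (Ccnd3), 0.19 (Cdk4) and 0.046 (Cdkn1a), and Cdkn1b to -0.046 and -0.31 in supraspinatus over Achilles and over patellar tendon. With the muscle covariate, flexor over supraspinatus turned to 0.0091 for Ccnd2 and 0.078 for Cdkn1a, and Cdk6 in flexor over patellar to -0.19; in the fit of 2 tendons alone Ccnd2 in flexor over supraspinatus gave 0.012. Leaving out each library gave -0.12 to 0.0052 for Ccnd2 in flexor over supraspinatus, -0.057 to 0.19 for Cdk6 in flexor over patellar, -0.11 to 0.053 for Ccnd1 and -0.0093 to 0.086 for Ccnd2 in Achilles over patellar tendon. Without Achilles 1 and patellar 1 together the values were -0.058 for Cdk6 and 0.025 for Ccnd1 in the same comparisons. None of these values passed in the model as reported, save those of Cdkn1b in supraspinatus over Achilles. With the muscle covariate 2, 3, 4 and 5 of the 10 genes passed in flexor over supraspinatus, supraspinatus over Achilles, supraspinatus over patellar and forelimb over hindlimb. Of all genes 5959 passed in place of 8082 in flexor over supraspinatus, and 5493 in place of 8560 in flexor over patellar. In supraspinatus over Achilles 1702 passed in place of 8497, in supraspinatus over patellar 1953 in place of 9555, and in forelimb over hindlimb 2951 in place of 9971. Muscle level differs between tendons, so the covariate also takes up differences between them. Achilles over patellar gave 874 genes, 1977 with DESeq2 (1 of the 10), 268 with the 2 tendons alone, 342 to 1415 without each library (1415 without patellar 1) and 1381 without Achilles 1 and patellar 1. Apart from the cases where the construction shows it, the cause was not tested.

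The titles do not say whether equal rat numbers are 1 animal, and the levels do not settle it: deviations of same-numbered libraries correlated at -0.21 to 0.37 (median 0.032, against -0.0096 for other numbers) over 24 pairs, 9 of them over 0.1. In flexor and supraspinatus the same-numbered pairs gave 0.083 to 0.26, while every other pair of tendons had values of both signs. In supraspinatus and patellar tendon they gave -0.21 to 0.010. Over all tendons 8 of 16 libraries correlated best with their own number, where 4 would by chance, a hint from the data and not the design. With a replicate block 1 call of the 10 genes changed, Cdkn1b in flexor over supraspinatus (0.24, adjusted p = 0.044), and 9942 genes differed in forelimb over hindlimb in place of 9971.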
